A study of Mus musculus with 30 samples.

Results

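The receptors and intracellular relay of the IL-6 cytokine family were followed in mouse skeletal muscle through 8 genes of the 47643 in the deposited expression table: the receptor genes Il6ra, Il6st, Osmr and Lifr, the kinase gene Jak1, the transcription factor gene Stat3, and the feedback inhibitor genes Socs2 and Socs3. They were taken by name, and all 8 were found. RNA was taken from the tibialis anterior, the shin muscle, of male mice of the C57BL/6J strain, in 30 libraries that form 4 experiments. Muscle labelled LLC cancer (n = 4) was set against its own control (n = 4); LLC is not spelled out in the labels and is the common abbreviation of Lewis lung carcinoma, a transplantable mouse tumour. Muscle after dexamethasone, a synthetic glucocorticoid, was set against its own control (n = 4 each), and muscle at 24 months of age (old, n = 3) against muscle at 6 months (young, n = 3). Muscle given siRNA against Cyr61, which encodes a secreted matrix protein, was set against muscle given NT siRNA (n = 4 each); NT is likewise not spelled out. Tumour load, dexamethasone dose, siRNA delivery and the age of the other mice are not given. The series title concerns how the stimuli of muscle wasting differ, and the first 3 comparisons address that question.

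Cytokines of the IL-6 family signal through a shared receptor chain, gp130, encoded by Il6st. IL-6 first binds its own receptor subunit, encoded by Il6ra, while leukaemia inhibitory factor and oncostatin M act through gp130 paired with the products of Lifr or Osmr. Kinases bound to the receptor tails, JAK1 chief among them, phosphorylate STAT3, which enters the nucleus as a dimer. SOCS3, itself a product of a STAT3 target gene, binds gp130 and JAK and shuts the signal off; SOCS2 is best known for restraining growth hormone signalling. In skeletal muscle this pathway is known for its part in regeneration and in the wasting that accompanies tumours.

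STAT dimers are known to bind the palindrome TTCNNNGAA, so the promoters of the genes were searched for it. RefSeq promoter windows (GRCm38.p6, from 250 bases before to 50 bases after the annotated start) were matched for 7 of the 8 genes, with 8 windows because Lifr has a pair; Socs2 was not matched. The windows of Socs3 and Osmr are shown because these are the genes that passed the test in old and in LLC muscle below. The first lies at chr11:117969317-117969616 and the second at chr15:6874264-6874563, both on the minus strand and written 5′ to 3′, with capitals marking the palindrome.
Socs3: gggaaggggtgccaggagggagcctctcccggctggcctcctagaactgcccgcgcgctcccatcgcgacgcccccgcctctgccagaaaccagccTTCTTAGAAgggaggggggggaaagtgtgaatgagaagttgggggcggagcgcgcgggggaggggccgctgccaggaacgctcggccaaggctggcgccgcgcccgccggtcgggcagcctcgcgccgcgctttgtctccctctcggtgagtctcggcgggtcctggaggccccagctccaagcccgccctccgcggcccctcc
Osmr: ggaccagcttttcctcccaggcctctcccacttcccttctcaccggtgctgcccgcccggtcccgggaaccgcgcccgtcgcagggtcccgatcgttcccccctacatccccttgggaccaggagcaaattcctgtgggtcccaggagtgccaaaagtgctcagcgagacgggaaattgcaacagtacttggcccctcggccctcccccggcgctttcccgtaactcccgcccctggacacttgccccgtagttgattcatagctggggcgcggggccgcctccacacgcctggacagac
Among the 8 windows, 1 holds the palindrome: in Socs3 it reads TTCTTAGAA at bases 97 to 105 of the window, the first of them at position -154 from the annotated start. The same letters occur in 2726 of all 32851 promoter windows of this length, or 8.30%. The hexamer TGTTCT, known from glucocorticoid response elements and read on both strands, was in 1 of the 8, that of Stat3, and in 19.0% of all windows. The full palindromic response element, which contains this hexamer on each strand, was in none of the 8 and in 0.00913% of all windows. These are matches of letters and not measured sites. The annotated start is that of RefSeq. By the GENCODE M21 gene positions given below, the windows of Socs3, Osmr and Lifr lie wholly inside the gene, downstream of its outermost 5′ end. For these genes the position is therefore counted from an inner start.

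Expression is given as TPM, reads per gene length scaled to a sum of 1000000 in each library, so levels of different genes can be set beside each other. Library depth, counted as whole reads recovered from the steps between TPM values, was 27.4 to 54.9 (in units of 1e6 reads). Behind the values of single genes stood 3715 to 13567 reads for Il6st, 3218 to 9620 for Jak1, 959 to 5455 for Stat3 and 747 to 3462 for Lifr. Socs2 rested on 286 to 1287 reads, Osmr on 134 to 1337, Il6ra on 75 to 1487 and Socs3 on 34 to 1040. Mitochondrially encoded genes took 37.9 ± 3.17% of TPM after dexamethasone and 48.7 ± 2.09% in its control (SD, n = 4 each), with 34.0 to 60.4% over all libraries; the highest was in the library LLC 3. Genes that mark muscle fibres were high in every library (summed TPM of 8 genes 73939 to 126391), while Alb, which marks liver, stayed at or below 0.0891 TPM. In RNA of whole muscle, fewer cells of a type and less RNA per cell cannot be told apart.

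Among the receptors, the shared chain Il6st (chr13:112464070-112510086, plus strand) was the most abundant in every library. It made up a median of 71.5% of the summed TPM of the 4 receptor genes, with a range of 65.2 to 78.9%. Its median over the 30 libraries was 28.5 TPM, against 7.25 TPM for Lifr (chr15:7090614-7197489, plus), 1.78 TPM for Il6ra (chr3:89864059-89913196, minus) and 1.69 TPM for Osmr (chr15:6813577-6874969, minus). Jak1 (chr4:101152367-101265282, minus) had a median of 37.1 TPM and Stat3 (chr11:100885098-100939540, minus) one of 10.8 TPM. The inhibitors were lower, with medians of 2.93 TPM for Socs2 (chr10:95385362-95417180, minus) and 2.88 TPM for Socs3 (chr11:117966079-117970047, minus). These are gene positions in GENCODE M21 (mm10).

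**Figure D1:**
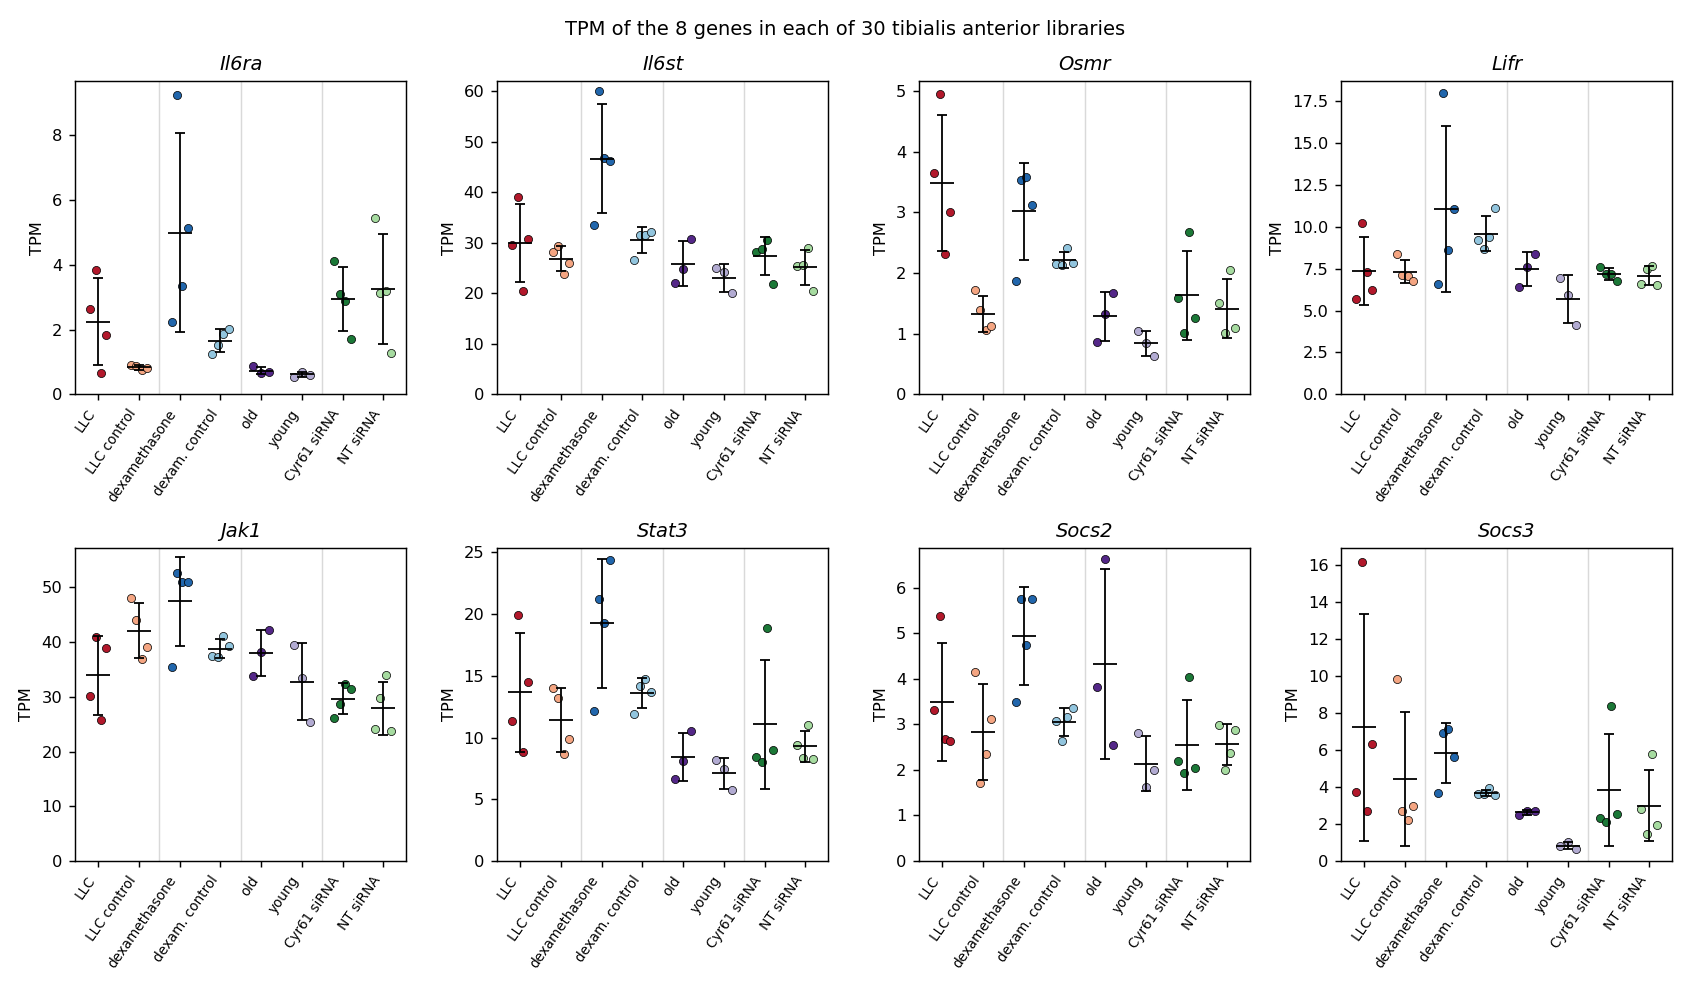
TPM (vertical axes, from 0) of the 8 genes in the 8 groups (horizontal axes); each point is 1 library, and black bars give the group mean ± SD. Osmr in all 4 LLC libraries is above every LLC control library, Socs3 in all 3 old libraries is above the young ones, and Il6st, Il6ra and Socs2 are higher after dexamethasone without overlap. Of all genes, 1.5% are higher without overlap under LLC, 15.5% in old muscle and 34.3% after dexamethasone.

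When the 8 groups were ordered by mean level, few neighbours in the order were separated. Il6st was highest after dexamethasone (46.6 ± 10.8 TPM, SD, n = 4) and its libraries there lay above those of the dexamethasone control, next in order at 30.5 ± 2.56 TPM (SD, n = 4). Il6ra ran from 4.99 ± 3.08 TPM after dexamethasone (SD, n = 4) down to 0.613 ± 0.0740 TPM in young muscle (SD, n = 3), and its 1 gap between neighbours lay between the dexamethasone control (1.66 ± 0.353 TPM, SD, n = 4) and the LLC control (0.839 ± 0.0810 TPM, SD, n = 4). Osmr was highest under LLC (3.48 ± 1.12 TPM, SD, n = 4) and lowest in young muscle (0.839 ± 0.207 TPM, SD, n = 3), with overlap between all neighbours. Socs3 was also highest under LLC (7.21 ± 6.13 TPM, SD, n = 4), with overlap down to the last step, from old (2.63 ± 0.125 TPM) to young muscle (0.835 ± 0.169 TPM, SD, n = 3 each). For Lifr the only gap was between the dexamethasone control (9.59 ± 1.06 TPM, SD, n = 4) and old muscle (7.46 ± 1.01 TPM, SD, n = 3). Jak1, Stat3 and Socs2 had none. Levels across experiments are a description, since each experiment had its own control.

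Under LLC, the oncostatin M receptor gene Osmr rose, Lifr and Il6st did not pass the test, and Il6ra was not tested. Osmr stood at 3.66, 4.95, 2.31 and 3.00 TPM in the LLC libraries, against 1.71, 1.38, 1.07 and 1.12 TPM in the LLC control libraries. All 4 LLC libraries were above all control libraries. The difference was 0.92 on the log2(TPM + 1) scale (SE 0.17, limma adjusted p = 0.0272), which understates the change of a gene this low; on recovered reads, limma voom gave 1.42 (adjusted p = 0.0114). Of 7 genes tested Osmr was the only one called, against a background of 0.295% of 10830 genes called higher and 0.886% called lower, and 1.5% were higher without overlap. After median-of-ratios scaling Osmr differed by 0.96 (limma adjusted p = 0.0109, with 1.67% of genes called higher and 1.57% lower). As deposited, the call was lost without LLC control 2, 3 or 4 or without LLC 1 or 4 (limma adjusted p = 0.0563 to 0.0941), and after scaling it held without any 1 of the 8 libraries (adjusted p = 0.00830 to 0.0470).

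The rise set Osmr apart from its partner chain Il6st, and from Lifr, within the same libraries. The ratio of Osmr to Il6st in TPM was 0.115 ± 0.0131 under LLC and 0.0491 ± 0.00800 in the control (SD, n = 4 each), from 0.0975 to 0.127 against 0.0434 to 0.0608. Osmr to Lifr, the alternative partner of gp130, was 0.482 ± 0.133 under LLC and 0.179 ± 0.0245 in the control (SD, n = 4 each), from 0.316 to 0.643 against 0.152 to 0.205. Neither ratio overlapped between the groups, and a ratio within a library does not depend on its scaling. Lifr itself was at 5.69, 10.2, 7.30 and 6.20 TPM in LLC libraries, against 8.36, 7.14, 7.04 and 6.77 TPM in the control. Il6st was at 29.6, 39.1, 20.3 and 30.8 TPM in LLC libraries, against 28.2, 29.4, 23.8 and 25.9 TPM in the control. Both overlapped, with log2 differences of -0.02 (95% interval -0.36 to 0.32; 0.03 after scaling) for Lifr and 0.12 (-0.25 to 0.50) for Il6st.

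**Figure D2:**
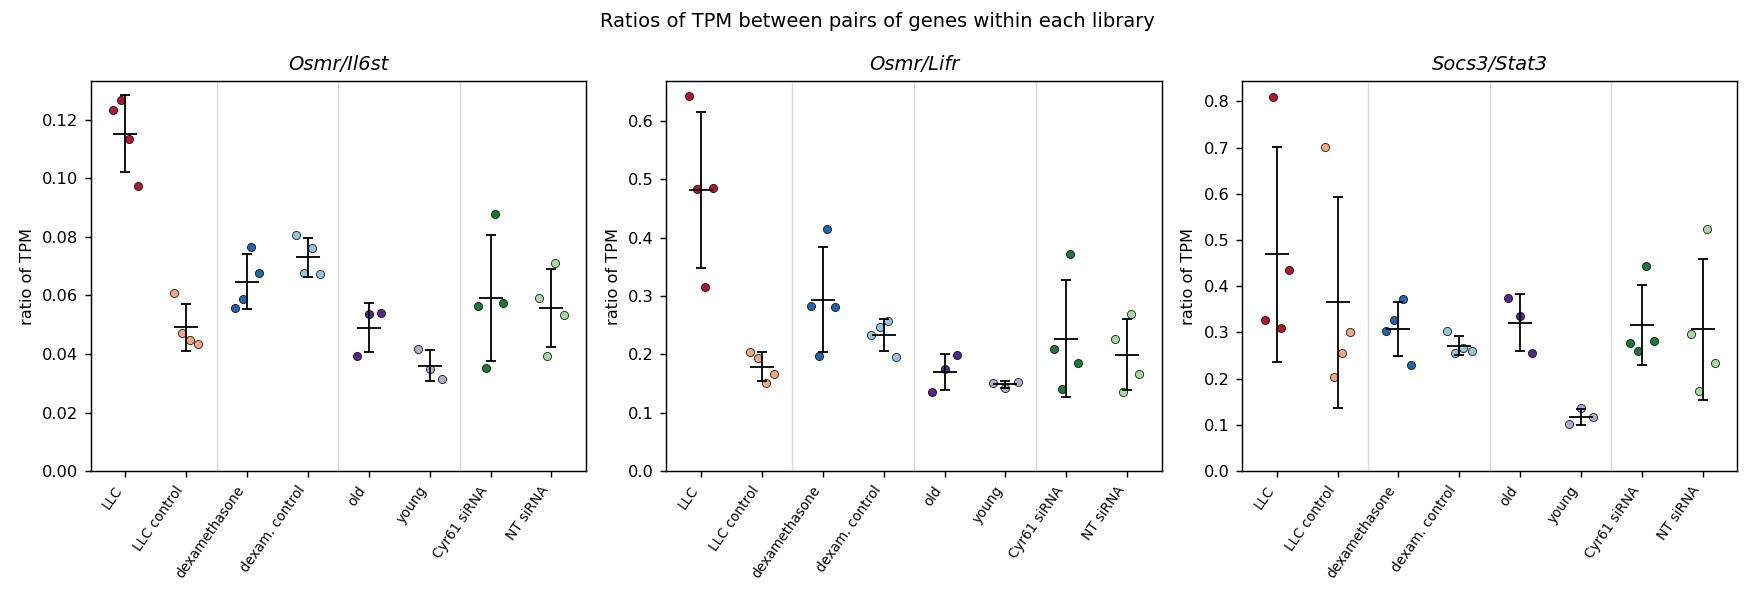
Ratios of TPM within each library (vertical axes, from 0) for Osmr to Il6st, Osmr to Lifr and Socs3 to Stat3 in the 8 groups (horizontal axes); points are libraries and black bars the group mean ± SD. Osmr to Il6st lies between 0.0975 and 0.127 in LLC libraries, above the 0.0434 to 0.0608 of their control, and Socs3 to Stat3 lies between 0.255 and 0.374 in old and between 0.101 and 0.135 in young libraries.

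Il6ra, the ligand-binding chain for IL-6, was split among the LLC libraries. It stood at 2.65, 3.84, 0.660 and 1.84 TPM in LLC libraries, against 0.921, 0.891, 0.746 and 0.799 TPM in the LLC control. As deposited, the libraries LLC 1, 2 and 4 were above every control library and LLC 3 was below them all, so Il6ra reached 1 TPM in too few libraries to be tested. LLC 3 had the lowest median-of-ratios scaling factor of the comparison (0.809). Its ratio of Il6ra to Il6st, 0.0325, lay within the 0.0303 to 0.0327 of the control. That ratio was 0.0893, 0.0983 and 0.0598 in LLC 1, 2 and 4. Without a filter on low values the log2 difference was 0.72 (limma adjusted p = 0.409). Il6ra was tested in 5 fits that left out 1 library. In each it passed the filter only through LLC 1, 2 and 4, where it was high. It was called in 1 of these fits, without LLC 3, at 1.01 (limma adjusted p = 0.0123) as deposited and 0.98 (adjusted p = 0.0147) after scaling. In the other 4 it was not called (adjusted p up to 0.411 as deposited). Because of how it entered, that call is no support for a rise.

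Downstream of the receptors, no gene passed the test under LLC. Jak1 was at 30.1, 40.9, 25.8 and 38.9 TPM in LLC libraries, against 48.1, 44.1, 36.9 and 39.2 TPM in the control (log2 difference -0.32, SE 0.16, limma adjusted p = 0.432). Stat3 was at 11.4, 20.0, 8.79 and 14.5 TPM in LLC libraries, against 14.0, 13.2, 8.65 and 9.89 TPM in the control (0.20, SE 0.22). Both overlapped. Socs3 spread widest, with 3.72, 16.1, 2.71 and 6.29 TPM in LLC libraries, against 9.83, 2.68, 2.22 and 2.97 TPM in the control. Its log2 difference of 0.53 (SE 0.46, limma adjusted p = 0.711) was 0.92 without LLC control 1 and 0.09 without LLC 2, neither called. Socs2 was at 2.64 to 5.38 TPM in LLC libraries and 1.72 to 4.15 TPM in the control.

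Markers of other cell types and of the muscle fibres also differed among these libraries. The 8 fibre markers summed to 73939 to 108418 TPM in LLC libraries and 111509 to 119988 TPM in the control, without overlap and with 0 of 8 called. The 8 neutrophil markers summed to 35.8 to 101 TPM in LLC libraries, with none at 0, against 5.43, 101, 1.25 and 1.46 TPM in LLC control 1 to 4, with up to 3 at 0, and 1 of the 4 tested, Csf3r, rose (limma adjusted p = 0.0354). Osmr was at 1.38 TPM in LLC control 2. Macrophage markers summed to 48.1 to 257 TPM in LLC libraries and 178 to 372 TPM in the control, with 0 of 9 called. Those of fibroadipogenic progenitors, the connective tissue cells of muscle, summed to 190 to 480 TPM in LLC libraries and 368 to 437 TPM in the control (0 of 8 called). Endothelial markers summed to 111 to 157 TPM in LLC libraries and 116 to 143 TPM in the control (0 of 8 called). Their part in the rise of Osmr was not tested.

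**Figure D3:**
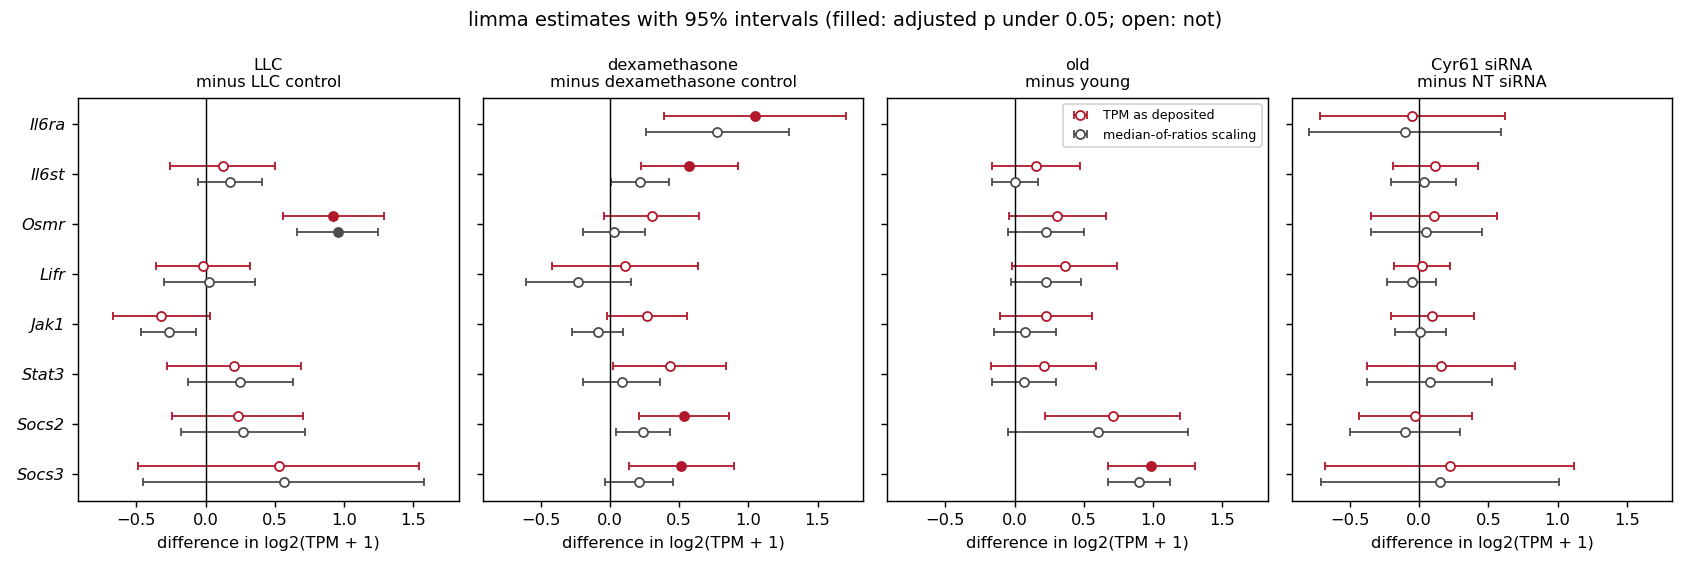
Differences in log2(TPM + 1) from limma with 95% intervals (horizontal axes) for the 8 genes (vertical axis) in the 4 comparisons, with TPM as deposited (red) and after median-of-ratios scaling (grey); filled points have an adjusted p under 0.05, and Il6ra was not tested in the LLC and old comparisons. Osmr under LLC is filled in both colours, while the 4 filled points after dexamethasone and Socs3 in old muscle are open after scaling.

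After dexamethasone, 4 of the 8 genes rose as deposited: the receptors Il6ra and Il6st and the inhibitors Socs2 and Socs3. Against a background of 35.9% of 11944 genes called higher and 1.51% lower, this count is near the share of all genes. The median of all genes was 0.33 higher on the log2 scale, 0.02 after median-of-ratios scaling, and after scaling 0 of the 8 passed in limma, where 4.44% of genes were called higher, 4.71% lower and 2836 had an unadjusted p under 0.05. Changes are therefore given here with their value relative to the median gene.

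Il6ra stood at 2.23, 9.24, 3.35 and 5.15 TPM after dexamethasone, against 1.24, 1.51, 1.86 and 2.02 TPM in its control. The groups did not overlap, as for 34.3% of genes. Its log2 difference was 1.05 (SE 0.30, limma adjusted p = 0.0236), or 0.72 relative to the median gene, and 0.77 after scaling (adjusted p = 0.0682). Il6st stood at 33.5, 60.0, 46.8 and 46.1 TPM after dexamethasone, against 26.6, 31.5, 31.6 and 32.1 TPM in its control, again without overlap. It differed by 0.57 (SE 0.16, limma adjusted p = 0.0215), or 0.24 relative to the median gene. After scaling and with 1 library left out, the difference in Il6st was 0.154 to 0.262, called in 0 of 8 fits. The ratio of Il6ra to Il6st was 0.101 ± 0.0408 after dexamethasone and 0.0541 ± 0.00815 in its control (SD, n = 4 each), from 0.0664 to 0.154 against 0.0464 to 0.0630. That ratio did not overlap either.

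The other receptors and the relay did not pass the test. Osmr was at 1.86, 3.53, 3.58 and 3.11 TPM after dexamethasone, against 2.15, 2.13, 2.41 and 2.17 TPM in its control. Dexamethasone 1 was below every control library and the other 3 above, with a log2 difference of -0.03 relative to the median gene (0.03 after scaling). Lifr was at 6.57, 18.0, 8.62 and 11.1 TPM after dexamethasone, against 9.23, 8.64, 9.39 and 11.1 TPM in its control. It differed by 0.11 as deposited and by -0.23 after scaling, so its direction follows the scaling. Jak1, at 35.4 to 52.7 TPM after dexamethasone and 37.3 to 41.0 TPM in its control, likewise differed by 0.27 as deposited and by -0.09 after scaling. Stat3 was at 12.1, 21.2, 19.3 and 24.4 TPM after dexamethasone, against 11.9, 14.2, 14.7 and 13.7 TPM in its control (0.43, SE 0.18, limma adjusted p = 0.0833; 0.08 after scaling).

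Both inhibitors moved by similar amounts. Socs2 was at 3.50, 5.76, 4.74 and 5.75 TPM after dexamethasone, against 3.07, 2.64, 3.15 and 3.36 TPM in its control, without overlap (0.53, SE 0.15, limma adjusted p = 0.0219; 0.20 relative to the median gene). Socs3 was at 3.66, 6.93, 7.15 and 5.61 TPM after dexamethasone, against 3.61, 3.64, 3.92 and 3.57 TPM in its control. The first library lay within the control range and the others above it (0.51, SE 0.17, limma adjusted p = 0.0396; 0.18 relative to the median gene). Its call held in 3 of 12 other settings and, as deposited, in 1 of 8 fits that left out a library. The library dexamethasone 1 was the lowest of its group in 8 of the 8 genes. Without it 7 of the 8 were called higher as deposited, where 8495 of all 12128 genes tested were. After scaling 1 was, Il6ra, where 509 of all 12128 were called higher. Without dexamethasone 4, dexamethasone control 1 or dexamethasone control 2, 0 of the 8 were called in limma, and without dexamethasone 3 only Il6ra and Socs2 were. In these 4 fits 2397 of 12021, 1894 of 12143, 1796 of 12166 and 2581 of 12003 genes were called higher.

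Macrophage markers moved with this comparison. They summed to 1084 to 2628 TPM after dexamethasone and 304 to 525 TPM in its control, with none of the 9 at 0; all 9 rose, and 5 of them also after scaling. Neutrophil markers summed to 13.8 to 88.9 TPM after dexamethasone and 8.36 to 37.0 TPM in its control, where S100a8 and S100a9 rose, Retnlg fell and Ly6g was at 0 in all libraries of both groups. Of markers tested, 4 of 5 of smooth muscle and pericytes, 3 of 5 of adipocytes, 2 of 4 of satellite cells and 1 of 5 of Schwann cells rose as deposited, where 35.9% of all genes did. After scaling these counts were 0 of 5, 1 of 5, 1 of 4 and 0 of 5. Lymphocyte markers, all under the filter, summed to 0.840 to 1.21 TPM after dexamethasone and 2.90 to 4.32 TPM in its control, without overlap. Endothelial markers summed to 150 to 231 TPM after dexamethasone and 196 to 223 TPM in its control. As deposited 1 of 8, Cldn5, was lower, where 1.51% of all genes were. After scaling 4 of 8 were lower, Kdr, Cdh5, Pecam1 and Cldn5, where 4.71% of all genes were. The part of these cells in the values of Il6ra, Il6st, Socs2 and Socs3 was not tested.

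In old muscle, Socs3 was the gene that rose, and no other of the 7 tested passed. It stood at 2.49, 2.72 and 2.68 TPM in old libraries, against 0.828, 1.01 and 0.670 TPM in young libraries. Reads behind these values numbered 109 to 141 per old library and 34 to 54 per young library. The groups did not overlap, as for 15.5% of genes higher in old muscle. The log2 difference was 0.99 (SE 0.15, limma adjusted p = 0.00950), where 0.152% of 10511 genes were called higher and 0.019% lower. The median of all genes was 0.14 higher in old muscle, and relative to it Socs3 was 0.85 higher. After scaling the difference was 0.90 with an adjusted p of 0.0594, when 0 genes were called in limma (0%; 1391 had an unadjusted p under 0.05), and without young 3 it was 0.92 (adjusted p = 0.133).

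The ratio of Socs3 to Stat3 was 0.321 ± 0.0608 in old and 0.118 ± 0.0172 in young muscle (SD, n = 3 each), from 0.255 to 0.374 against 0.101 to 0.135, without overlap. Stat3 itself stood at 6.65, 8.13 and 10.5 TPM in old libraries, against 8.19, 7.44 and 5.73 TPM in young libraries, and overlapped. Young muscle had the lowest mean ratio of the 8 groups, the others lying at 0.271 to 0.470. Socs2 was at 3.82, 6.62 and 2.55 TPM in old libraries, against 2.80, 1.62 and 2.00 TPM in young libraries. Its log2 difference of 0.71 (SE 0.23, limma adjusted p = 0.279) passed only without young 1 (0.86, adjusted p = 0.0212), and not after scaling (0.71, adjusted p = 0.401). The receptors and Jak1 differed by 0.15 to 0.36 in the same direction as the median gene, with overlap in each, and Il6ra, below the filter, was at 0.659 to 0.863 TPM in old and 0.546 to 0.693 TPM in young libraries. Macrophage markers summed to 56.5 to 91.6 TPM in old and 32.3 to 56.2 TPM in young libraries, with 0 of 6 tested called, and neutrophil markers to 3.32 to 12.5 TPM in old and 1.12 to 2.28 TPM in young libraries, with 0 of 1 called. Lymphocyte markers, all under the filter, summed to 1.27 to 2.15 TPM in old and 0.367 to 0.594 TPM in young libraries, without overlap. The part of these cells in the level of Socs3 was not tested.

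In the siRNA experiment, the targeted gene Cyr61 stood at 32.9, 52.8, 45.8 and 25.5 TPM with Cyr61 siRNA, against 57.0, 64.6, 67.8 and 36.8 TPM with NT siRNA. The groups overlapped (log2 difference -0.53, SE 0.25, limma adjusted p = 0.999, unadjusted p = 0.0626). After scaling the difference was -0.62 (SE 0.22, unadjusted p = 0.0231, limma adjusted p = 0.9999). None of the 8 pathway genes passed, as none of 11006 genes did (0%; 109 had an unadjusted p under 0.05 in limma, 184 after scaling and 162 in limma voom on recovered reads, which also called 0). Log2 differences of the 8 ran from -0.05 for Il6ra to 0.22 for Socs3, and the intervals were wide for Socs3 (-0.68 to 1.12) and narrow for Lifr (-0.18 to 0.23). Stat3 was at 8.45, 8.02, 18.8 and 8.97 TPM with Cyr61 siRNA, against 9.41, 8.37, 11.0 and 8.30 TPM with NT siRNA. Socs3 was at 2.34, 2.09, 8.37 and 2.53 TPM with Cyr61 siRNA, against 2.80, 1.45, 5.77 and 1.94 TPM with NT siRNA. In both groups library 3 was the highest for both genes.

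The responses were then compared with each other in 1 limma fit of the 22 libraries of the LLC, dexamethasone and age experiments, in which each response takes part in a pair of contrasts. The LLC response of Osmr exceeded the dexamethasone response by 0.62 as deposited (SE 0.23, limma adjusted p = 0.0507), which did not pass. After scaling the difference was 0.96 (SE 0.17, adjusted p = 0.00182), where 2.86% of 12392 genes were called higher and 3.7% lower. For Jak1 the LLC response was below the dexamethasone response by -0.59 (SE 0.22, adjusted p = 0.0479). There 26.5% of genes were called lower and 1.09% higher, and the median gene was at -0.37; after scaling Jak1 was at -0.17 (adjusted p = 0.459). As deposited, leaving out 1 library at a time kept the call of Jak1 in 8 of 22 fits and called Osmr in 5 of 22. Between the LLC and old-age responses no gene of the 8 was called, in limma, where 0.0484% of all genes were, with Osmr at 0.62 (adjusted p = 0.341; 0.74 and 0.0782 after scaling). Between the dexamethasone and old-age responses none was called either, with 2.06% of all genes.

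Variation among libraries of 1 group was shared by several of the genes. In 7 of the 8 groups the library highest in Stat3 was also highest in Osmr, in 6 Socs3 and Osmr shared their highest library, and in 5 Socs3 and Stat3 did. These counts use TPM as deposited. Stat3 and Osmr were both highest in old 3, young 1, LLC control 1, LLC 2, Cyr61 siRNA 3 and NT siRNA 3. Each also had the highest median-of-ratios scaling factor of its group (1.20, 1.03, 1.08, 1.10, 1.15 and 1.07), so the median gene was high there too. Dexamethasone control 3, the other shared library, had 0.912, against 0.927 in dexamethasone control 4. LLC 2 was highest in its group in Stat3 (20.0 TPM), Osmr (4.95 TPM), Socs3 (16.1 TPM) and Socs2 (5.38 TPM). The library LLC control 1 held 9.83 TPM of Socs3 against 2.22 to 2.97 TPM in the other 3, with Osmr and Stat3 also highest there. Cyr61 siRNA 3 and NT siRNA 3 had the most Stat3, Osmr and Socs3 of their groups. Neutrophil markers summed to 101 TPM in LLC 2, 87.8 TPM in Cyr61 siRNA 3 and 60.3 TPM in NT siRNA 3, each the highest of its group. That sum was 5.43 TPM in LLC control 1, where LLC control 2 had 101 TPM. The part of these cells in the shared variation was not tested. Over the 30 libraries, on log2(TPM + 1) after scaling, Pearson's r was 0.81 for Stat3 with Socs3, 0.81 for Osmr with Stat3 and 0.78 for Osmr with Socs3, a description only, since libraries share their group, depth and mitochondrial share.

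**Figure D4:**
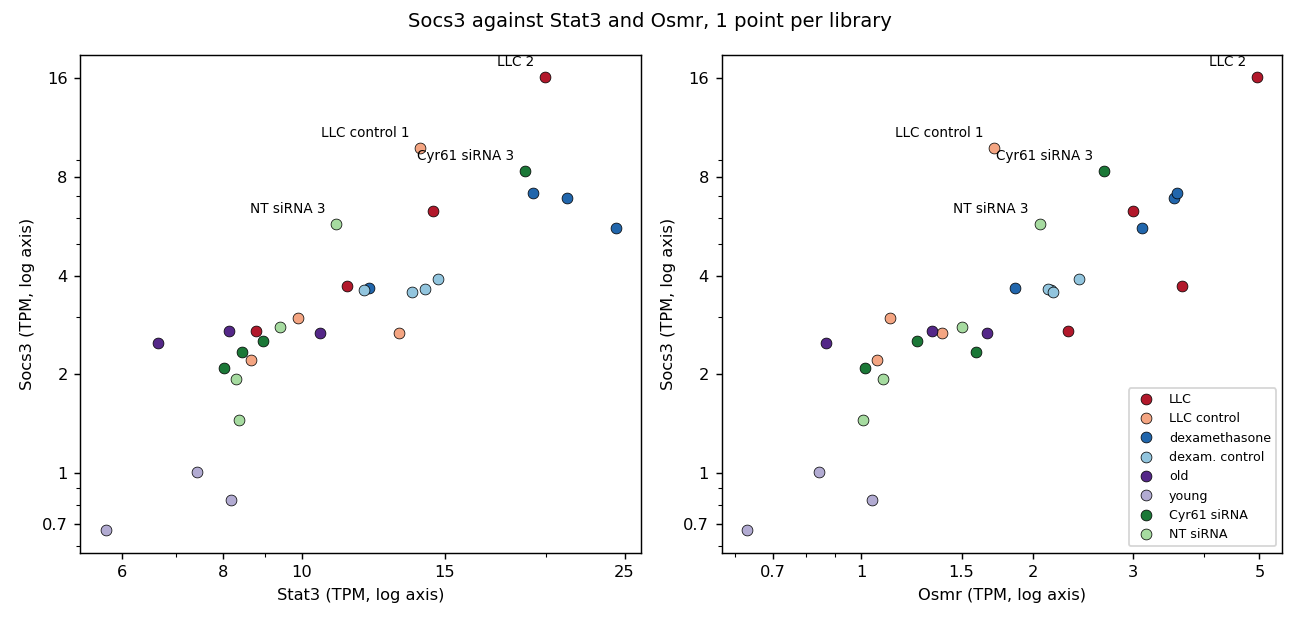
Socs3 against Stat3 (left) and against Osmr (right) in TPM on logarithmic axes, with 1 point per library coloured by group. The libraries LLC 2, LLC control 1, Cyr61 siRNA 3 and NT siRNA 3, labelled, have the highest Socs3 of their groups (16.1, 9.83, 8.37 and 5.77 TPM), and the 3 young libraries lie lowest.

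The genes around these 8 were read from a list of 67 ligands, other receptors, kinases and adaptors, STATs, inhibitors and known STAT3 targets. The ligands were scarce in muscle. Il6, Lif, Osm and Il11 stayed under the filter with group means of at most 0.381 TPM. Ctf1, which encodes the ligand cardiotrophin-1, had group means of 5.11 to 6.64 TPM, and Cntf, ciliary neurotrophic factor, 1.59 to 3.07 TPM. Under LLC, 0 of 54 list genes tested rose and 2 fell, among them Igf1, beside 0.295% of all genes called higher and 0.886% lower. Igf1, which encodes a muscle growth factor, fell to 1.23 ± 0.248 TPM under LLC, against 3.28 ± 1.23 TPM in the control (SD, n = 4 each; limma adjusted p = 0.0357). After scaling 2 fell, Igf1 again among them, and 4 rose: the kinase gene Jak3, the receptor gene Il4ra, and the STAT3 targets Mcl1, a survival factor, and Pim3, a kinase. Of all genes, 1.67% were then called higher and 1.57% lower. The 20 STAT3 targets had a median 0.34 above that of all genes under LLC, with 0 higher and 1 lower.

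After dexamethasone, 20 of 57 list genes rose and 2 fell, and 8 rose and 4 fell after scaling. The share that rose is near the 35.9% of all genes called higher as deposited, and after scaling 4.44% of all genes were called higher and 4.71% lower. Of the STAT3 targets, 10 of 20 rose and 1 fell, with a median 0.26 above that of all genes, beside 35.9% of all genes called higher. After scaling 6 of 20 rose, beside 4.44% of all genes. The largest were Lcn2, an iron-scavenging secreted protein, at 106 ± 24.8 TPM after dexamethasone and 0.653 ± 0.170 TPM in its control, and Serpina3n, a protease inhibitor, at 53.4 ± 16.5 TPM after dexamethasone and 7.85 ± 1.80 TPM in its control (SD, n = 4 each). Cdkn1a, a cell cycle inhibitor, was at 99.9 ± 26.8 TPM after dexamethasone and 25.1 ± 6.64 TPM in its control, and Timp1, a metalloproteinase inhibitor, at 39.8 ± 19.1 TPM after dexamethasone and 9.69 ± 1.89 TPM in its control. Fgl2, a fibrinogen-like protein gene, fell. Some of these genes are known to answer to glucocorticoids as well, so the list is not specific to STAT3.

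Of the 13 other inhibitors, 4 rose and 1 fell after dexamethasone, with a median 0.0016 above that of all genes. Socs1, a close relative of Socs3 known for restraining interferon signalling, fell to 1.55 ± 0.262 TPM after dexamethasone, against 4.79 ± 2.43 TPM in its control (SD, n = 4 each; limma adjusted p = 0.00767, and 0.0103 after scaling). The phosphatase genes Ptpn1, Ptpn2 and Ptpn6 and Socs6 rose as deposited and none of them after scaling. Of the other receptors tested, Il10rb, a chain of the IL-10 receptor, rose to 10.3 ± 1.69 TPM after dexamethasone, against 4.98 ± 0.643 TPM in its control, also after scaling, and Il11ra1 and Il4ra rose only as deposited. The adaptor genes Shc1 and Grb2 also rose as deposited alone. Stat2, which carries interferon signals, did not pass as deposited and fell after scaling (limma adjusted p = 0.0431). In old muscle 0 of 50 list genes passed, and with Cyr61 siRNA 0 of 53.

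For each gene the most similar profiles over the 30 libraries were named by Pearson's r on log2(TPM + 1) after scaling, among 6918 genes with a mean of at least 5 TPM; libraries of a group are not independent, and no p is given. Socs3 and Stat3 shared the same nearest gene, Sbno2, with r of 0.84 and 0.87, and Stat3 came next for Socs3 (0.81). Osmr was nearest to Gda (0.91), Ablim1 (0.86) and Adcy4 (0.86), and Gda was also among the 3 nearest to Socs3 (0.75). Il6ra was nearest to Sidt2, Lrrc58 and Phf3 (0.90, 0.89 and 0.89) and Il6st to Dhx38, Ncstn and Sec23ip (0.88, 0.81 and 0.78). Lifr was nearest to Ttn, the giant sarcomere protein gene (0.81), Ccnt2 and Trip11 (0.75 each), and Jak1 to Zbed4, Dusp3 and P4ha1 (0.87, 0.86 and 0.86). After Sbno2, Stat3 was nearest to Sema7a (0.81) and Tnfrsf1a (0.80). For Socs2 the 3 nearest profiles were less alike than for the other 7 genes, and included Crk (0.56) and Ier5 (0.53).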

How the data were processed

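The table deposited by the authors holds TPM for 47643 gene symbols in 30 libraries, 1 column each, every column summing to 1000000. Libraries were made with a TruSeq stranded mRNA kit from biological replicates, per the labels' protocols, and mapped to mm10, per the submitters' processing notes. No aligner, counter, strand setting or annotation is given in the sources used here. P-values measure the spread between these libraries.

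Within a gene, TPM values were whole multiples of what 1 read is worth (tolerance 0.05 read), for 15806 genes with the summed exon length of GENCODE M21, for 7386 with the shortest other length that gave whole numbers, and not for 1. Among the 8 genes, Lifr was of the second kind, so its reads may be low by a whole factor. Read numbers cover counting error only, and 3 reads of a gene of 2 kb equal 0.0512 to 0.0995 TPM.

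Groups followed the labels. limma 3.58.1 in R 4.3.3 fitted log2(TPM + 1), with a pseudocount of 1 and a variance trend, within each experiment, to genes reaching 1 TPM in a number of libraries at least equal to the size of the smaller group, and called genes at a two-sided Benjamini-Hochberg adjusted p under 0.05 over all genes tested. Il6ra missed this filter in the LLC and old comparisons; the other genes passed it throughout. A fit of 22 libraries compared responses. The fits were tested on simulated data, in which genes varied independently. The simulation held no library-wide shift and no outlying library, so it cannot speak for calls that depend on scaling or on 1 library. The 8 genes, the gene lists and the tests were chosen with earlier results of these data known. Genes of the pathway list were named if they passed, up to 4 per role and comparison by size of change, and similar profiles by the 3 highest r per gene. Socs6, Fgl2 and the genes that passed only after scaling were named beyond that rule, after their values were seen. Some genes that the rule picks are not reported here. Alternatives were other pseudocounts and filters, median-of-ratios scaling, rescaling with mitochondrial genes removed, quantile normalization, all groups in 1 fit, a replicate block, a stricter threshold and leaving out each library; limma voom on recovered reads was added after the data were seen. Tables and plots used pandas 2.3.3, numpy 2.4.6 and matplotlib 3.10.9 under Python 3.11.15.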

Additional observations from a re-analysis of the deposited data

Results flagged for a closer look

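Single libraries stood far from the other 3 of their group in 7 of the 48 combinations of gene and group examined, all in groups of 4, by Dixon's test of the gap over the range at its 95% critical value. Chance gives such a gap in about 5% of groups. Cyr61 siRNA 3 was the highest of its group in Stat3 (18.8 TPM), Socs3 (8.37 TPM) and Socs2 (4.03 TPM). LLC control 1 was the highest of its group in Socs3 (9.83 TPM). Dexamethasone 1 was the lowest of its group in Jak1 (35.4 TPM). Among the dexamethasone controls, replicate 1 was the lowest in Il6st (26.6 TPM) and replicate 3 the highest in Osmr (2.41 TPM).

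Jak1 differed between the LLC and dexamethasone responses by -0.588 on the log2 scale (limma adjusted p = 0.0479), and after median-of-ratios scaling by -0.17 (adjusted p = 0.459). Every old library was above the mean of young muscle in Jak1 (lowest 33.8 TPM), and every LLC library was below the mean of its control (highest 40.9 TPM). That pattern by itself was not tested; the limma contrast of the LLC and old-age responses gave -0.55 for Jak1 (adjusted p = 0.371).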

How the results depend on the processing

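Counts of the 8 genes called depended on the processing. Osmr under LLC was lost with no filter, a filter of 5 TPM and an adjusted p under 0.01 (0 genes each), and kept in the other 10 alternatives. Leaving out libraries gave 0 to 2 genes. The count of 2 came without LLC 3, where 226 of all 10985 genes were called higher as deposited and 269 after scaling. Besides Osmr it held Il6ra, which passed the filter there only through LLC libraries. After dexamethasone the count of 4 fell to 3 with all groups in 1 fit and with voom on total library sizes (both without Socs3), to 2 with no filter, to 1 with a filter of 5 TPM, to 0 with median-of-ratios scaling, mitochondrial genes removed, quantile normalization, an adjusted p under 0.01 or voom with scaled library sizes. Leaving out libraries gave 0 to 7 higher and 0 to 1 lower (Lifr, scaled, without dexamethasone 2). All genes called higher numbered 4290 of 11944 in the main fit, 6085 of 11944 with all groups in 1 fit and 1595 of 11943 with the first voom fit. They numbered 3895 of 21490 with no filter, 3298 of 7754 with the filter of 5 TPM and 530 of 11944 with median-of-ratios scaling. The count of 7 came without dexamethasone 1, as deposited, where 8495 of 12128 genes were called higher. In old muscle the count of 1 fell to 0 with no filter, a filter of 5 TPM, scaling, quantile normalization, all groups in 1 fit and both voom fits, and to 0 to 2 without single libraries. The count of 2 came without young 1, as deposited, where 252 of all 10717 genes were called higher. Between the LLC and dexamethasone responses the count of 1 fell to 0 with a pseudocount of 0.1 or no filter, was 0 to 2 without single libraries, and was Osmr in place of Jak1 after scaling. All genes called lower numbered 2836 of 12392 with the pseudocount of 0.1, 3199 of 22688 with no filter and 458 of 12392 after scaling. They numbered 6666 of 12350 without dexamethasone 1 and 1563 of 12390 without LLC 3. Apart from the filter, which removes low genes or adds tests, the cause was not tested.

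Libraries share replicate numbers. Same-numbered deviations correlated positively, but in no comparison was every correlation over 0.1, nor did every library correlate best with its own number, so the numbers were not taken as pairs: the correlations ran from 0.04 to 0.37 (LLC), 0.03 to 0.50 (dexamethasone), 0.04 to 0.14 (old) and 0.09 to 0.50 (siRNA). With the replicate number as a block the count was 1 under LLC, 5 after dexamethasone, 1 in old muscle, 0 with siRNA and 0 between the LLC and dexamethasone responses. Of all genes, 136 of 10830 were called higher and 366 lower under LLC, and 5530 of 11944 higher and 205 lower after dexamethasone. In old muscle 133 of 10511 were called higher and 19 lower, and between the responses 123 of 12392 higher and 2788 lower. Cyr61 with siRNA differed by -0.53 with the block (SE 0.0919, unadjusted p = 0.00112, limma adjusted p = 0.803). With block and scaling together the count of the 8 genes was 1 under LLC, 1 after dexamethasone and 0 in old muscle. Of all genes, 147 of 10830 were called higher under LLC, 850 of 11944 after dexamethasone and 0 of 10511 in old muscle.

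Log2 differences near 0 changed sign. Lifr under LLC was 0.027 with scaling (alone or with the block), 0.115 with mitochondrial genes removed, 0.0275 with quantile normalization, and 0.0265 and 0.0270 in the voom fits. After dexamethasone Lifr was -0.230 with scaling (alone or with the block), -0.153 with mitochondrial genes removed, -0.252 with quantile normalization, and -0.0693 and -0.256 in the voom fits. Jak1 after dexamethasone was -0.0905 with scaling (alone or with the block), -0.00012 with mitochondrial genes removed, -0.0826 with quantile normalization and -0.0936 with scaled voom. With Cyr61 siRNA Lifr was -0.0546 with scaling (alone or with the block), -0.0363, -0.0600, -0.0161 and -0.0626 in the other 4, and Jak1 -0.00154 with quantile normalization. Leaving out single libraries, as deposited or scaled, the ranges that crossed 0 were -0.0112 to 0.292 (Il6st) and -0.173 to 0.127 (Lifr) under LLC; -0.0365 to 0.455 (Osmr), -0.408 to 0.303 (Lifr), -0.123 to 0.402 (Jak1) and -0.0206 to 0.625 (Stat3) after dexamethasone; -0.0348 to 0.257 (Il6st), -0.0238 to 0.368 (Jak1) and -0.00348 to 0.349 (Stat3) in old muscle. With Cyr61 siRNA they were -0.336 to 0.181 (Il6ra), -0.0206 to 0.217 (Il6st), -0.0818 to 0.227 (Osmr), -0.103 to 0.0562 (Lifr), -0.0499 to 0.191 (Jak1), -0.140 to 0.269 (Stat3), -0.237 to 0.0488 (Socs2) and -0.175 to 0.512 (Socs3). Depth limits Socs3 in young muscle, with 34 to 54 reads per library.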
